A study of Homo sapiens with 3 samples.

Results

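MALAT1, NEAT1 and TUG1 are 3 long non-coding RNAs (lncRNAs), grouped here as nuclear lncRNAs. Where they lay in these cells was not measured. They were chosen by name, and each is 1 entry of a table of 44591 genes, 14957 of which are long non-coding. Caki-1 cells, an established human line of clear cell renal carcinoma, were transfected with a non-targeting control (si-Control) or with 1 of 2 siRNAs that target RBCK1, called si-RBCK1 #1 and si-RBCK1 #2, and RNA was taken after 48 h. RBCK1, also called HOIL-1 (the sample labels spell the treated groups si-HOIL-1#1 and si-HOIL-1#2), is a subunit of the linear ubiquitin chain assembly complex. Each condition had 1 library, so differences carry no replicate check and no test was made. Each siRNA is a reagent of its own, not a replicate of the other, and both comparisons share the si-Control library.

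All 3 groups were Caki-1 cells transfected with siRNA, at the 10 nmol/L that the methods give for transfections in general, so the control cells were transfected too. Knockdown was transient and was studied in 1 cell line. The sample records describe removal of ribosomal RNA before a directional library, which retains transcripts without a poly(A) tail. RPKM values express reads per length of the gene and per total of the library, and the totals behind the deposited values were 36926834 (si-Control), 40442939 (si-RBCK1 #1) and 36344428 (si-RBCK1 #2). In si-Control, RBCK1 itself was at 33.3 RPKM, and the siRNAs left 9.97 RPKM (si-RBCK1 #1) and 12.3 RPKM (si-RBCK1 #2). Its level was thus 29.9% and 36.8% of the control level. The renal lineage factor PAX8 was at 124, 82.5 and 107 RPKM in the same order. Of 16 renal epithelial and renal carcinoma markers, 10 had a mean of at least 1 RPKM, while CA9, PAX2, EPCAM, KRT19 and LHX1 were among those that did not. Of these 10, 5 were higher and 3 lower with both siRNAs, against 43.3% and 38.2% of all genes with such a mean. The epithelial keratin KRT8 was at 65.6, 172 and 238 RPKM (log2 ratios on log2(RPKM + 1) of 1.38 and 1.84), and the mesenchymal filament gene VIM at 664, 1512 and 1392 RPKM (1.19 and 1.07). The mesenchymal cadherin CDH2 was at 24.5, 17.7 and 15.9 RPKM (-0.45 and -0.60), and the receptor MET at 144, 112 and 109 RPKM (-0.36 and -0.40). KRT18, another epithelial keratin, was higher with both siRNAs too (0.57 and 0.84). The keratins KRT8 and KRT18 thus shared a direction, while the mesenchymal genes VIM and CDH2 did not. CA9, a hypoxia-induced carbonic anhydrase used as a marker of clear cell carcinoma, stayed at or below 0.0636 RPKM in every library. None of 18 markers of other cell types reached a mean of 1 RPKM, their summed level was 2.13, 2.83 and 2.90 RPKM, and the T cell gene CD3E was listed at 0 in all 3 libraries.

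MALAT1 lies in nuclear speckles, bodies rich in splicing factors, and is among the most abundant lncRNAs of many human cells. NEAT1 builds paraspeckles: its long isoform is the scaffold on which NONO, SFPQ and other RNA-binding proteins assemble, while its short isoform ends at an early poly(A) site. TUG1 is a spliced and polyadenylated lncRNA for which binding to polycomb proteins has been described. MALAT1 and the long isoform of NEAT1 share an unusual 3′ end. RNase P cuts them just before a tRNA-like RNA, and the end that remains folds into a triple helix in place of a poly(A) tail.

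These 3′ ends are shown because they are what sets MALAT1 and NEAT1 apart from TUG1 as RNA molecules. Both come from the longest GENCODE v29 transcript of the gene (GRCh38, plus strand), and are read 5′ to 3′. Capitals mark the runs of at least 8 bases that the last 100 bases of NEAT1 share with the 100 bases of MALAT1 before its tRNA-like RNA, called mascRNA. MALAT1 is given for chr11:65506025-65506116 and NEAT1 for chr11:65445447-65445540.
MALAT1: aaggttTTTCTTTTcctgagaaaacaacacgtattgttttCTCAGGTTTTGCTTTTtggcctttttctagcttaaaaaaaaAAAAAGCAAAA
NEAT1: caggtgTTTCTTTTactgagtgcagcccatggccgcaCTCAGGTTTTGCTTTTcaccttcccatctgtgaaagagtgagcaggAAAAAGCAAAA

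The 3 shared runs were TTTCTTTT, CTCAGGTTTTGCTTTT and AAAAAGCAAAA, in this order in both RNAs. The first 2 runs are rich in T and the last is rich in A, the letters from which the triple helix forms. The MALAT1 stretch ended 0 nt before the RefSeq entry of mascRNA (58 nt), and the NEAT1 stretch was the last 94 nt of its transcript. Searched as letters on the transcribed strand, the 3 runs followed each other within 200 nt in 2 of 26180 transcripts labelled long non-coding (0.00764%). Those 2 were MALAT1 and NEAT1 themselves. The 26180 were the longest per gene name and were chosen by the label of the transcript, not of the gene. Non-coding transcripts of protein-coding genes could thus be among them. The runs did so in 0 of 19669 longest protein-coding transcripts, and TUG1 had no such stretch. The runs were read from these 2 RNAs, so the count describes how rare the letters are and is no independent test.

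The siRNA sense strands are shown because their seeds can touch RNAs other than the intended target. Capitals mark the 7 bases that pair with guide positions 2 to 8.
si-RBCK1 #1: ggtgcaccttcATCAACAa
si-RBCK1 #2: ggattaccagcGATTTCTa

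Neither 19-base strand occurred in a transcript of the 3 lncRNAs. The seed site of si-RBCK1 #1, ATCAACA, occurred 0 times in MALAT1, 1 time in NEAT1 and 0 times in TUG1. Over all the 26180 transcripts labelled long non-coding, it occurred at 0.0764 sites per kb. The seed site of si-RBCK1 #2, GATTTCT, occurred 2, 3 and 1 times, or 0.230, 0.132 and 0.134 sites per kb, against 0.0966 sites per kb over all. The 3 lncRNAs thus lay below the rate over these transcripts for si-RBCK1 #1 and above it for si-RBCK1 #2, with at most 3 sites in any lncRNA. Whether these sites had a part in the levels was not tested.

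In the coordinates of the table, whose build is hg19 in the submitters' processing notes, MALAT1 lies at chr11:65265209-65273987 and NEAT1 at chr11:65190269-65213011, both on the plus strand. Their starts are 74.9 kb apart. TUG1 lies at chr22:31365197-31375381 on the plus strand. The lengths that turned the RPKM values into whole reads were 8779 nt for MALAT1 and 22743 nt for NEAT1, 100% of their spans, and 7667 nt for TUG1, 75.3% of its span. In GENCODE v29 the longest transcripts of MALAT1 and NEAT1 have 1 exon each and that of TUG1 has 3. The 2 isoforms of NEAT1 were thus counted as 1 entry over the full length of the long isoform, and their shares cannot be told apart here.

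NEAT1 had the highest RPKM of the 3 in every library and, of the 3, was the most reduced after RBCK1 knockdown. Its place above MALAT1 holds for RPKM as deposited and turns round if MALAT1 is taken over the positions it shares with no other entry (120.5, 66.2 and 77.1 RPKM). Its level was 80.9 RPKM in the control (67974 reads), 37.2 RPKM under si-RBCK1 #1 (34248 reads) and 36.4 RPKM under si-RBCK1 #2 (30082 reads). Both knockdown libraries lay below the control and close to each other. NEAT1 took 0.184% of the reads in si-Control (95% exact Clopper-Pearson interval 0.183 to 0.185%), 0.0847% (0.0838 to 0.0856%) with si-RBCK1 #1 and 0.0828% (0.0818 to 0.0837%) with si-RBCK1 #2. These intervals, like all below, cover counting error only. Among the long non-coding entries, ranked by RPKM, NEAT1 stood at place 9 in si-Control, 13 with si-RBCK1 #1 and 18 with si-RBCK1 #2.

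MALAT1 was also lower in both knockdown libraries. Its level was 16.2 RPKM in the control (5242 reads), 8.89 RPKM under si-RBCK1 #1 (3155 reads) and 10.4 RPKM under si-RBCK1 #2 (3303 reads). Its share of the reads was 0.0142% (0.0138 to 0.0146%), 0.00780% (0.00753 to 0.00808%) and 0.00909% (0.00878 to 0.00940%) in the same order. The control interval lay above both others, and the 2 knockdown intervals did not overlap. MALAT1 held place 40 among the long non-coding entries in si-Control, 66 with si-RBCK1 #1 and 56 with si-RBCK1 #2, by RPKM as deposited.

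TUG1 differed less, and mainly with si-RBCK1 #1. Its level was 20.5 RPKM in the control (5796 reads), 14.5 RPKM under si-RBCK1 #1 (4508 reads) and 19.0 RPKM under si-RBCK1 #2 (5294 reads). It took 0.0157% (0.0153 to 0.0161%), 0.0111% (0.0108 to 0.0115%) and 0.0146% (0.0142 to 0.0150%) of the reads. The si-RBCK1 #2 library lay near the control and the si-RBCK1 #1 library below both. TUG1 was at place 31, 32 and 26 among the long non-coding entries, so its rank was higher with si-RBCK1 #2 than in the control although its level was lower.

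**Figure D1:**
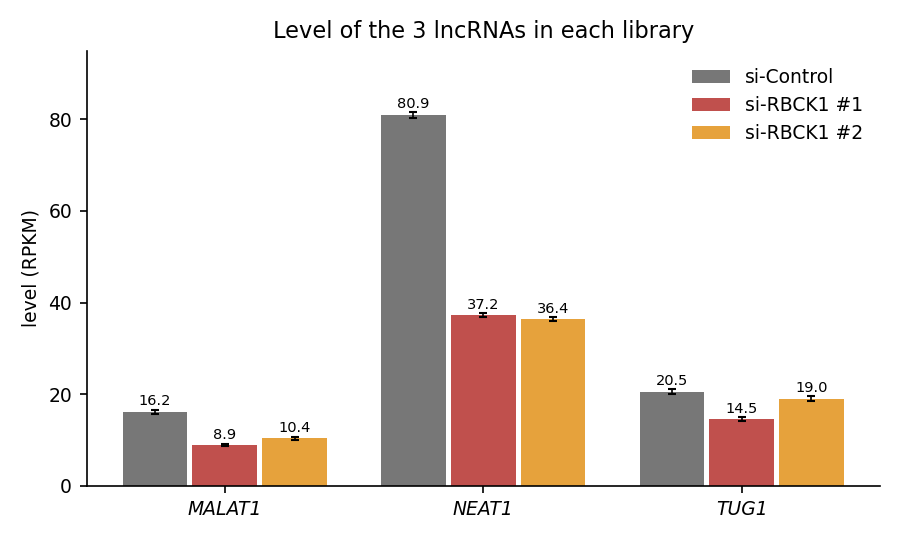
Levels of MALAT1, NEAT1 and TUG1 in RPKM in the si-Control, si-RBCK1 #1 and si-RBCK1 #2 libraries, 1 library per bar, with the 95% exact interval of the read count as the error bar (counting error only). NEAT1 stands at 80.9 RPKM in si-Control and at 37.2 and 36.4 RPKM after knockdown, while TUG1 with si-RBCK1 #2 stands at 19.0 RPKM, near its control level of 20.5 RPKM.

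The comparison of each si-RBCK1 library with si-Control was made as a difference of log2(RPKM + 1), the log2 ratio, which understates changes of low genes. For NEAT1 the log2 ratio was -1.10 with si-RBCK1 #1 and -1.13 with si-RBCK1 #2. Taken on the reads alone, its level was 46.0% (45.4 to 46.6%) and 45.0% (44.4 to 45.6%) of the control. Both siRNAs left slightly less than 50% of the control level. The direct comparison of si-RBCK1 #1 with si-RBCK1 #2 gave a log2 ratio of 0.03 for NEAT1, with a counting interval of 0.01 to 0.06 on the reads.

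For MALAT1 the log2 ratio was -0.80 with si-RBCK1 #1 and -0.60 with si-RBCK1 #2, and its level was 55.0% (52.6 to 57.4%) and 64.0% (61.3 to 66.9%) of the control. The level was lower with si-RBCK1 #1 than with si-RBCK1 #2, at 85.8% of it (81.7 to 90.2%). For TUG1 the log2 ratio was -0.47 with si-RBCK1 #1 and -0.10 with si-RBCK1 #2, and its level was 71.0% (68.3 to 73.8%) and 92.8% (89.4 to 96.3%) of the control. TUG1 showed the widest gap between the siRNAs, at 76.5% (73.5 to 79.6%) of the si-RBCK1 #2 level with si-RBCK1 #1. In bulk RNA, fewer cells with an RNA and less of the RNA per cell cannot be told apart.

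Set against all genes, NEAT1 was the only 1 of the 3 that was at least 2-fold lower, and it was so with both siRNAs. A mean over the 3 libraries of at least 1 RPKM was required and left 12403 genes. Among these, 3.27% were at least 2-fold lower with si-RBCK1 #1, 2.27% with si-RBCK1 #2 and 1.41% with both. Among the 934 long non-coding entries that passed the same filter, these shares were 6.96%, 4.18% and 2.25%. Among the 63 long non-coding entries with a mean of at least 10 RPKM, nearer to NEAT1 in level, 14 (22.2%) were at least 2-fold lower with si-RBCK1 #1 and 11 (17.5%) with si-RBCK1 #2, so a decrease of this size was less rare there. MALAT1 was at least 1.5-fold lower with both siRNAs, as were 6.24% of all genes and 9.85% of long non-coding entries. With si-RBCK1 #2 it was close to the limit, with a log2 ratio of -0.60. TUG1 was not 1.5-fold lower with either siRNA. All 3 were lower in both libraries, and so were 38.2% of all genes and 47.6% of the long non-coding entries, so that this shared sign alone was common.

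The place of each lncRNA in the spread of ratios followed the same order. With si-RBCK1 #1, 2.35% of all genes had a lower log2 ratio than NEAT1, 6.24% a lower ratio than MALAT1 and 16.2% a lower ratio than TUG1. With si-RBCK1 #2 the shares were 1.54%, 8.92% and 37.2%. TUG1 was therefore well inside the spread of all genes with si-RBCK1 #2, and 49.1% of long non-coding entries had a lower ratio than it there.

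**Figure D2:**
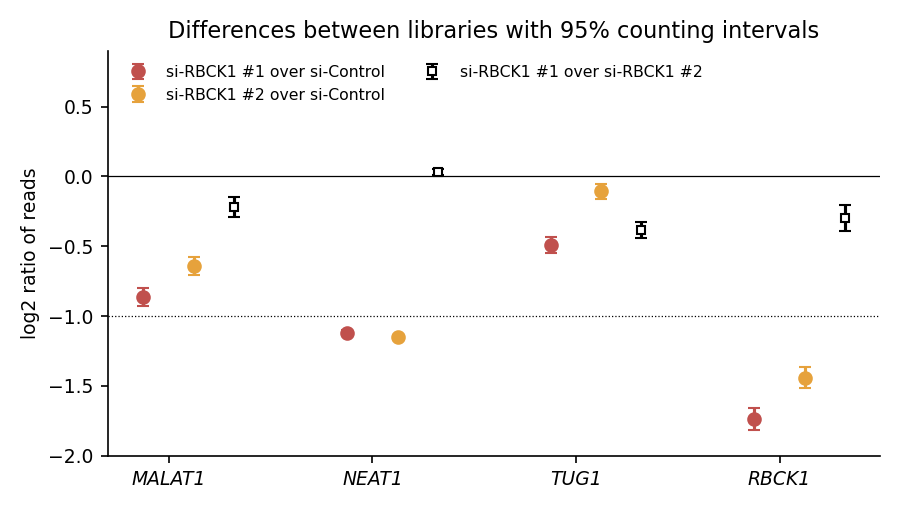
Log2 ratio taken on the reads, without a pseudocount, of MALAT1, NEAT1, TUG1 and the targeted gene RBCK1, 1 library per condition. Each si-RBCK1 library is set over si-Control, and si-RBCK1 #1 also over si-RBCK1 #2. Error bars are intervals for counting error only. Over si-Control, NEAT1 lies at -1.12 and -1.15, MALAT1 at -0.86 and -0.64, TUG1 at -0.49 and -0.11, and RBCK1 at -1.74 and -1.44. The log2 ratios in the text use log2(RPKM + 1) and so differ slightly.

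The balance among the 3 lncRNAs shifted within each library, a measure that does not depend on the scaling of libraries. NEAT1 was at 5.01 times the level of MALAT1 per length in si-Control, 4.19 times with si-RBCK1 #1 and 3.52 times with si-RBCK1 #2. Against TUG1, NEAT1 was at 3.95, 2.56 and 1.92 times. TUG1 was at 1.27 times the level of MALAT1 in si-Control, 1.64 times with si-RBCK1 #1 and 1.84 times with si-RBCK1 #2. In RPKM as deposited, the order NEAT1, TUG1, MALAT1 was the same in the 3 libraries, with NEAT1 nearer to the others after knockdown. The order depends on how reads on shared positions were counted: on its unshared positions alone MALAT1 would stand above NEAT1 in every library.

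Lower levels were more frequent among long non-coding entries than among protein-coding genes in these libraries. The median log2 ratio of the 934 long non-coding entries was -0.15 with si-RBCK1 #1 and -0.09 with si-RBCK1 #2, against 0.03 and 0.05 for 10775 protein-coding genes. Of the long non-coding entries, 60.7% and 57.6% were lower than in si-Control, against 47.6% and 45.4% of protein-coding genes. Of the 63 with a mean of at least 10 RPKM, which include the 3 described here, 48 (76.2%) were lower with si-RBCK1 #1 and 50 (79.4%) with si-RBCK1 #2, with medians of -0.47 and -0.45. With si-RBCK1 #1 the median entry was TUG1 itself, and MALAT1 and NEAT1 lay below it in both libraries.

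Among 119 non-coding entries with a mean of at least 10 RPKM, those nearest to each lncRNA were found by the Euclidean distance over the 2 log2 ratios. Nearest to NEAT1 was SNORD44, a small nucleolar RNA, at 44.0, 19.9 and 17.6 RPKM in si-Control, si-RBCK1 #1 and si-RBCK1 #2 (distance 0.142). THAP9-AS1 (0.187) and LOC100506844 (0.232) followed. Nearest to MALAT1 were ENSG00000240476.1 (0.103), at 68.1, 41.5 and 43.4 RPKM, LINC00963 (0.126) and LINC00493 (0.140). Nearest to TUG1 was another small nucleolar RNA, SNORD80, at 74.4, 55.4 and 69.4 RPKM (0.0476), then ENSG00000261063.1 (0.0722) and NUTM2A-AS1 (0.0949). Likeness was measured over 2 ratios that share 1 control library, and it describes the values only.

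Other entries of the table lie on top of these lncRNAs, and this bears on the absolute level of MALAT1. TALAM1, an antisense RNA of the MALAT1 locus, shares 7205 nt of MALAT1 (82.1%), and with a short antisense entry (ENSG00000270117.1) and mascRNA a total of 7601 of 8779 nt (86.6%) is shared. TALAM1 had 2 reads in si-Control, 0 with si-RBCK1 #1 and 1 with si-RBCK1 #2, the other 2 were at 0 reads in every library, and no fold was taken. NEAT1 shares 100 nt (0.44%) with MIR612, at 0 in every library. TUG1 shares 2334 nt of its span (22.9%) with ENSG00000269987.1, and ENSG00000269972.1 lies within its span too. Both are antisense entries and were at 0 in every library.

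The same was seen elsewhere in the table. There were 229 other genes with at least 1000 reads over the 3 libraries whose span, taken as their length, gave whole reads. Of the entries of any type lying wholly inside them, 13 of 13 on the opposite strand and 2 of 2 on the same strand were at 0 in all 3 libraries. Among antisense and lincRNA entries elsewhere, 5160 of 9403 (54.9%) were at 0. That set is limited to these types, so the shares are not a like comparison. Had all MALAT1 reads fallen on its 1178 unshared positions alone, its level per length would be 120.5, 66.2 and 77.1 RPKM, with the ratios between libraries unchanged. That is above NEAT1 taken in the same way (81.3, 37.4 and 36.6 RPKM), so the order of the 2 would reverse in every library. How reads on shared positions were assigned is not given in the sources used here, so the rank of MALAT1 and its level beside NEAT1 and TUG1 carry this limit. The ratio of each lncRNA to its own control does not depend on the length used.

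Genes around the lncRNAs were examined because NEAT1 and MALAT1 are neighbours on chromosome 11. Within 100 kb of the 3 lncRNAs lay 23 other entries, of which 9 had a mean of at least 1 RPKM and 6 were at 0 in every library. Around NEAT1 and MALAT1, 7 of the 8 that passed the filter were higher in both knockdown libraries, as were 43.3% of all genes (6 of 8 when libraries were scaled to equal totals). FRMD8, a FERM domain protein that starts 36.2 kb before NEAT1, was at 10.6 RPKM in the control, 21.2 RPKM under si-RBCK1 #1 and 25.1 RPKM under si-RBCK1 #2 (log2 ratios 0.93 and 1.17). MAP3K11, a mixed lineage kinase, was at 13.5, 23.5 and 33.5 RPKM (0.76 and 1.26).

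The other neighbours lay between these and no difference. SSSCA1 was at 21.1, 33.4 and 34.4 RPKM, FAM89B at 11.6, 15.9 and 20.0 RPKM, and EHBP1L1 at 10.9, 15.0 and 19.5 RPKM. All of them were higher with both siRNAs. DPF2, a subunit of the BAF chromatin remodelling complex, was at 14.4, 16.3 and 17.3 RPKM. LTBP3, which binds latent TGF-beta, was the exception, at 12.2, 7.24 and 11.8 RPKM (log2 ratios -0.68 and -0.05). The number of neighbours is small, and how often other stretches of the genome show such counts was not tested.

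TUG1 has a divergent neighbour, MORC2, a chromatin ATPase that acts with the HUSH silencing complex and starts 0.9 kb away on the other strand. MORC2 was at 13.0, 11.2 and 11.1 RPKM, and its log2 ratios were -0.19 and -0.20. It was the only 1 of 6 other entries within 100 kb of TUG1 to pass the filter. Its value was slightly lower with both siRNAs, while that of TUG1 differed between them.

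**Figure D3:**
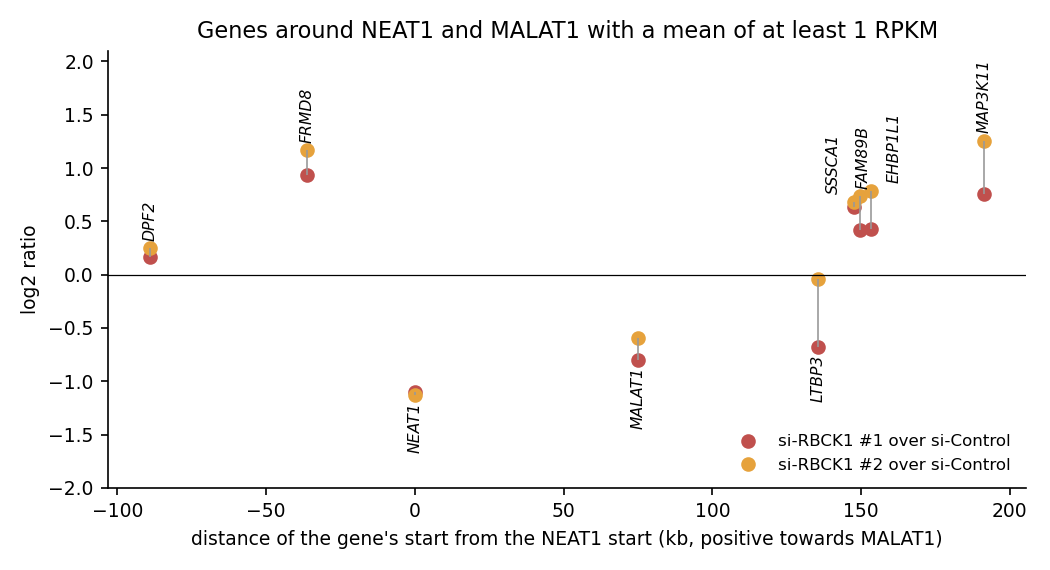
Log2 ratios on log2(RPKM + 1) of NEAT1, MALAT1 and 7 of the 8 other genes around them with a mean of at least 1 RPKM, against the distance of each gene's start from the NEAT1 start in kb. Red points are si-RBCK1 #1 and orange points si-RBCK1 #2 over si-Control, joined by a line per gene. NEAT1 and MALAT1 lie below 0, while FRMD8 and MAP3K11 lie highest, at 1.17 and 1.26 with si-RBCK1 #2.

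Genes of the bodies and machinery to which the lncRNAs belong were compared in the same way, beside all 12403 genes, whose median log2 ratio was 0.02 (si-RBCK1 #1) and 0.03 (si-RBCK1 #2). At least 2-fold higher were 2.91% of all genes with si-RBCK1 #1 and 2.5% with si-RBCK1 #2. The share at least 2-fold higher with both siRNAs was not counted and cannot exceed the smaller of these. Genes singled out below beyond those set by the naming rule were chosen after their values were seen, where a count held 5 or fewer.

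Genes for paraspeckle proteins were mostly higher, while the pooled entry of both NEAT1 isoforms was lower. All 31 passed the filter, their median log2 ratio was 0.35 (si-RBCK1 #1) and 0.26 (si-RBCK1 #2), and 23 were higher (against 43.3% of all genes) and 5 lower (against 38.2%) with both siRNAs. NONO, a core protein that binds the long isoform of NEAT1, was at 94.6 RPKM in the control, 134 RPKM under si-RBCK1 #1 and 141 RPKM under si-RBCK1 #2. Its partner SFPQ was at 55.0, 99.1 and 103 RPKM. Both were higher than the control with either siRNA. RBM14, which is needed for paraspeckles to form, was at 6.11, 11.6 and 14.0 RPKM (log2 ratios 0.82 and 1.08). RBM14 with si-RBCK1 #2 was the only 1 of the 31 to be at least 2-fold higher.

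HNRNPH3, another paraspeckle protein, was the only 1 to be at least 2-fold lower. It was so narrowly and with si-RBCK1 #2 alone, as were 2.27% of all genes. It was at 66.8 RPKM in the control, 35.2 RPKM under si-RBCK1 #1 and 32.6 RPKM under si-RBCK1 #2 (log2 ratios -0.91 and -1.02). The others lower with both siRNAs were ZC3H6 (-0.70 and -0.39), TAF15 (-0.35 and -0.31), RBM7 (-0.00 and -0.31) and NUDT21 (-0.14 and -0.20). DAZAP1 and FIGN were lower with si-RBCK1 #1 and higher with si-RBCK1 #2.

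The proteins known to act on the choice between the isoforms of NEAT1 did not move as a set. CPSF6 and NUDT21, the cleavage factor I subunits that favour the early poly(A) site, differed in sign. CPSF6 was at 8.33, 16.6 and 17.2 RPKM and so was higher (log2 ratios 0.91 and 0.96), while NUDT21 was at 50.6, 45.7 and 43.8 RPKM. HNRNPK, which opposes them and so favours the long isoform, was at 209, 235 and 201 RPKM, above the control with si-RBCK1 #1 (0.17) and below it with si-RBCK1 #2 (-0.06).

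Nuclear speckle genes, the group of the body in which MALAT1 lies, had a median log2 ratio of 0.30 (si-RBCK1 #1) and 0.42 (si-RBCK1 #2). All 30 passed the filter, 23 were higher with both siRNAs (against 43.3% of all genes), and CLK1, CLK4 and PNISR were lower with both. SON, a scaffold protein of speckles, was at 19.8, 24.9 and 26.8 RPKM, and SRRM2, the other scaffold, at 40.4, 60.6 and 82.7 RPKM (log2 ratios 0.57 and 1.01). SNRNP70, the U1 snRNP protein, was at 34.9, 97.5 and 104 RPKM and was the only 1 at least 2-fold higher with both (1.46 and 1.54). U2AF1, which recognises the 3′ splice site, was at 28.2, 58.5 and 55.0 RPKM.

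CLK1, a kinase that phosphorylates SR splicing factors, went the other way, at 22.1 RPKM in the control, 8.98 RPKM under si-RBCK1 #1 and 11.5 RPKM under si-RBCK1 #2 (log2 ratios -1.21 and -0.88). Its relative CLK4 was at 6.03, 4.58 and 4.43 RPKM (-0.33 and -0.37). SRSF11, LUC7L3, RBM25 and NKTR were below the control with si-RBCK1 #1 and above it with si-RBCK1 #2, by at most 0.26 on the log2 scale in size. The speckle genes were thus, like those of paraspeckles, mostly above 0.

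The enzymes that form or bind the 3′ ends shown above were not lower as a group. Of 14 genes, 12 were higher with si-RBCK1 #1 and 9 with si-RBCK1 #2, the latter near the share over all genes, which was 51.5% with si-RBCK1 #1 and 53.5% with si-RBCK1 #2. The medians were 0.25 and 0.50. POP1, a protein of RNase P, was at 7.19 RPKM in the control, 19.1 RPKM under si-RBCK1 #1 and 19.0 RPKM under si-RBCK1 #2, and POP7, another, at 17.9, 37.4 and 40.0 RPKM. Both were at least 2-fold higher with both siRNAs. POP4 was so with si-RBCK1 #1 alone (1.01) and the RNA subunit RPPH1 with si-RBCK1 #2 alone (1.20).

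ELAC2, which trims the other end of mascRNA, was at 16.2, 30.9 and 30.4 RPKM (log2 ratios 0.89 and 0.87). METTL16, which binds the MALAT1 triple helix, was at 5.37, 8.96 and 8.43 RPKM (0.64 and 0.57). RPP40 (-0.10 and -0.44) and RPP21 (-0.00 and -0.23), 2 further RNase P proteins, were lower with both siRNAs. RPP14, RPP30 and RPP38 were above the control with si-RBCK1 #1 and below it with si-RBCK1 #2.

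The nuclear exosome, which degrades nuclear RNAs, and its adaptors were balanced. Of 19 genes, 8 were higher (against 43.3% of all genes) and 9 lower (against 38.2%) in both knockdown libraries, near the shares over all genes. The medians were -0.07 and 0.03, and the sign of the latter turned to -0.01 when libraries were scaled to equal medians. EXOSC2 (0.78 and 0.44) and EXOSC9 (0.55 and 0.52) of the exosome core were higher. EXOSC8, also of the core, was at 34.6 RPKM in the control, 19.6 RPKM under si-RBCK1 #1 and 21.0 RPKM under si-RBCK1 #2, and ZCCHC7, of the TRAMP adaptor complex, at 13.2, 7.77 and 8.05 RPKM. None of the 19 was at least 2-fold different with either siRNA, against 6.18% of all genes with si-RBCK1 #1 and 4.76% with si-RBCK1 #2.

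Polycomb repressive complex 2, to which TUG1 has been described to bind, was likewise not 2-fold different in any of its 11 genes. Among all genes, 6.18% were so with si-RBCK1 #1 and 4.76% with si-RBCK1 #2. With so few genes the absence is near these shares. With both siRNAs 6 of the 11 were higher (against 43.3% of all genes) and 2 lower (against 38.2%). The medians were 0.13 and 0.10. EZH2, its methyltransferase, was at 10.3, 18.0 and 18.5 RPKM (log2 ratios 0.74 and 0.79), and EED, which reads the mark, at 8.19, 13.2 and 12.4 RPKM (0.62 and 0.54). SUZ12, the remaining core subunit, was at 21.3, 22.0 and 19.6 RPKM and had opposite signs with the 2 siRNAs. AEBP2 (-0.47 and -0.55) and EZH1 (-0.06 and -0.07) were lower with both, and RBBP7 and JARID2 differed in sign.

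Factors known to act on the NEAT1 promoter went both ways. Of 12 genes, 11 passed the filter and ESR1 did not. With both siRNAs 5 were higher (against 43.3% of all genes) and 6 lower (against 38.2%). HIF1A, the oxygen-regulated factor of the hypoxia response, was at 171 RPKM in the control, 77.2 RPKM under si-RBCK1 #1 and 105 RPKM under si-RBCK1 #2 (log2 ratios -1.14 and -0.70). NFKB1, an NF-kB subunit, was at 27.7, 16.6 and 13.9 RPKM (-0.70 and -0.95). E2F1, a factor of cell cycle entry, was at 7.83, 20.2 and 18.6 RPKM and was the only 1 at least 2-fold higher with both (1.26 and 1.15). STAT3, a factor of cytokine signalling, was at 22.8, 39.1 and 35.3 RPKM. These are levels of RNA, and whether any of them had a part in the level of NEAT1 was not tested.

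**Figure D4:**
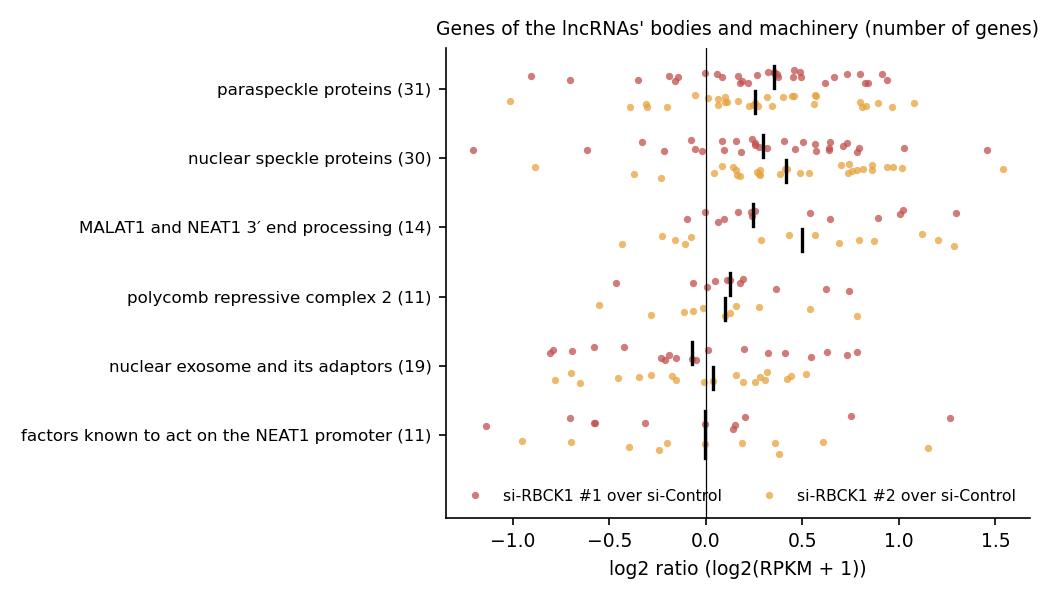
Log2 ratios on log2(RPKM + 1) of the genes of 6 lists with a mean of at least 1 RPKM, 1 point per gene, with the number of genes beside each list's name. Red points are si-RBCK1 #1 and orange points si-RBCK1 #2 over si-Control, and black bars are medians, which lie at 0.35 and 0.26 for paraspeckle proteins and at -0.07 and 0.03 for the nuclear exosome.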

How the data were processed

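The authors deposited 1 table of RPKM values for 44591 genes, with 1 column per library. The submitters' processing notes name TopHat2, FastQC, Trimmomatic, HTSeq and build hg19. How RPKM was computed and whether counting used strand are not given in the sources used here. The table's comparison columns (control and treated value, log2 fold change, p-value and q-value) were not used. Of its entries, 1 is not a number and was left out.

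The log2 ratio was the difference of log2(RPKM + 1) between a si-RBCK1 library and si-Control, over 12403 genes that averaged at least 1 RPKM. With 1 library per condition there was no test. Whole reads were recovered from the deposited RPKM values. Short RNAs of up to 200 nt gave each library's total, and for each of the 3 lncRNAs a single length up to its span gave whole reads in all 3 libraries, to within 0.0001 reads or, for large counts, rounding error. Exact Clopper-Pearson intervals (95%) on those reads cover counting error only. All 126 list genes above the filter also gave whole reads.

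The 3 lncRNAs and the gene lists, written from general knowledge, were chosen with earlier results of these data known. Named genes were RBCK1, the 3 lncRNAs, entries within 100 kb of them, a set of core genes, and from each list the 2 genes higher and the 2 lower in both libraries with the largest smaller ratio. For each lncRNA, the 3 nearest non-coding genes were added. Some of the genes so chosen are counted but not reported by name here. On simulated data, 200 of 200 genes changed by set amounts larger than the 2-fold limit were found at least 2-fold changed in each comparison. So were 14 and 16 of 12182 unchanged genes for si-RBCK1 #1 and si-RBCK1 #2. This checked the steps of the calculation only. Spread between cultures is not known from 1 library per condition, so these counts give no rate of false calls. Alternatives were other pseudocounts, scalings, filters and fold limits, and ratios of reads. Sequences came from GENCODE v29, RefSeq and the study's supplement. Scripts ran in Python 3.11.15 with scipy 1.17.1, pandas 2.3.3, numpy 2.4.6 and, for plots, matplotlib 3.10.9.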

Additional observations from a re-analysis of the deposited data

Results flagged for a closer look

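Of 48 named genes above the filter, 2 lay on different sides of the control with the 2 siRNAs, 1 library each. Many of the 48 were named by a rule that required the same sign with both siRNAs. The count is thus no measure of how far the siRNAs agree. Of all genes above the filter, 43.3% were higher and 38.2% lower with both siRNAs. HNRNPK, the paraspeckle protein that favours the long isoform of NEAT1, was above the control under si-RBCK1 #1 (log2 ratio 0.17) and below it under si-RBCK1 #2 (-0.055). SUZ12, of polycomb repressive complex 2, had log2 ratios of 0.0458 and -0.11. The difference between the siRNAs was not tested, since each condition had 1 library.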

How the results depend on the processing

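No paired analysis was possible because the design held 1 library per condition. All 3 lncRNAs stayed lower with both siRNAs under every alternative tried, and NEAT1 stayed at least 2-fold lower. The log2 ratio ranged from -1.15 to -1.02 (si-RBCK1 #1) and from -1.18 to -1.05 (si-RBCK1 #2) for NEAT1, from -0.86 to -0.61 and from -0.64 to -0.46 for MALAT1, and from -0.52 to -0.38 and from -0.15 to -0.09 for TUG1. A pseudocount of 5 RPKM, which draws ratios towards 0, gave -1.02 and -1.05 for NEAT1, -0.61 and -0.46 for MALAT1 and, with si-RBCK1 #1, -0.38 for TUG1, so that MALAT1 with si-RBCK1 #2 was no longer 1.5-fold lower. Reads without a pseudocount gave -1.12 and -1.15 for NEAT1 and, with si-RBCK1 #1, -0.86 for MALAT1. Scaling to equal totals gave -1.15 and -1.16 for NEAT1, equal protein-coding totals -1.15 and -1.16, and equal medians -1.18 with si-RBCK1 #2. The genes at least 2-fold different in either direction, 766 with si-RBCK1 #1 and 591 with si-RBCK1 #2, became 1346 and 1085 with a pseudocount of 0.1 RPKM, 219 and 198 with 5 RPKM, 455 and 391 with a mean of at least 5 RPKM, and 2934 and 2556 at a 1.5-fold limit. Of the 52 alternatives, 31 moved the value by less than counting error or, for counts, by less than 1.5 times. Replicate spread, not depth, is what these 3 libraries cannot give.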
